A study of Bos taurus with 36 samples.

Results

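The collagen genes of cattle were followed in 3 fetal organs, the heart, the gonads and the liver, and in the blood of the heifers that carried them. Members were all rows of the deposited count table whose bovine RefSeq protein-coding symbol had the form COL, number, A, number. They were 44 of the 35092 rows, and each was found in the table. The study asked how fetal organs mature along fetal weight at the end of organogenesis, and whether maternal blood reflects it. All 10 fetuses were male and were collected on Day 42 of gestation, at weights from 1.253 to 1.69 g. In the ET_D7 group, 5 heifers had received a Day 7 embryo in a Day 7 uterus, and in the ET_D9 group 5 heifers had received a Day 7 embryo in a Day 9 uterus. Fetuses are numbered here by weight, so fetuses 1 to 5 were the ET_D7 fetuses and 6 to 10 the ET_D9 fetuses. The transfer groups thus differed in weight without overlap, and weight also varied within each group. Heifers carry the number of their fetus, and their blood was taken on the same day into tubes that stabilise RNA. The submitters had removed 1 heart, 1 gonad and 2 liver samples for low RNA quality.

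Collagens are secreted proteins in which 3 chains wind into a triple helix, and each gene encodes 1 chain. The fibrillar collagens give connective tissue its tensile strength, and the collagen IV chains form the sheet on which epithelia, endothelia and muscle cells rest. Other classes coat fibrils, form beaded filaments, anchor the skin or stay in the cell membrane. The members comprised 11 fibrillar chains, 6 chains of the basement membrane network, 5 beaded filament chains and 10 fibril-associated chains. The other members were 2 multiplexins, 4 transmembrane collagens, 3 short-chain collagens, the anchoring fibril collagen COL7A1, and COL26A1 and COL28A1, which were left outside these classes.

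Each heart or liver library held 18231089 to 35857434 counts, with 22762065 to 39649051 in the gonads and 26602415 to 40812354 in blood. The mitochondrial genome gave 17.1% to 57.3% of heart counts, 16.3% to 36.8% of liver counts and at most 7.23% of gonad counts. For 6 organ libraries, the typical gene lay as near to other libraries of the same organ as sampling noise would leave it, or nearer. This was judged on 12275 to 14653 genes with 50 counts or more, of which 89% to 94.6% differed by less than 2 square roots of the count. The heart library of fetus 1 lay near a weighted sum of those of fetuses 2 to 5, with a median squared residual of 0.867 times that of counting noise. The gonad libraries of fetuses 6 and 8 were near scaled copies of each other (0.00115 times) and lay near sums of those of fetuses 7, 9 and 10. The liver library of fetus 9 lay near a sum of those of fetuses 8 and 10 (0.244 times), and the liver libraries of fetuses 1 and 2 near each other (0.432 times). All other organ libraries lay at 6.41 times or more. Values well below 1 are closer than counting noise would leave separately sequenced libraries, and how they arose was not tested. Therefore 8 heart, 7 gonad and 6 liver libraries were used, with the livers of fetuses 1 and 2 averaged as 1 sample. The tests were repeated with all 26 deposited organ libraries, and members or ratios whose call differed are named or counted.

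The organ labels were checked against cell markers, in CPM, which are counts relative to the library total after scaling between libraries. The 6 cardiomyocyte markers summed to 36280 CPM or more in every heart library and the 6 hepatocyte markers to 29720 CPM or more in every liver library. In the libraries labelled gonads, the Sertoli cell markers GATA4 and AMH were at 0 to 0.12 CPM and 0.981 to 2.24 CPM. The Leydig cell marker NR5A1 was at 0.292 to 1.10 CPM. All 8 Sertoli markers summed to 37.0 to 62.3 CPM there, 257.6 to 467.1 in the heart and 94.9 to 158 in the liver. All 7 Leydig markers summed to 7.965 to 15.46 CPM there, 10.2 to 24.8 in the heart and 67.0 to 158.5 in the liver. None of the 8 Sertoli cell markers and none of the 7 Leydig cell markers was above the heart and liver in every gonad library. By contrast, 7 of 8 markers of the mesonephros and kidney were, among them PAX2 at 103 to 137 CPM and SIX2 at 28.7 to 62.0 CPM. The 8 summed to 250.2 to 297.2 CPM in the gonads, 116.4 to 272.5 in the liver and 4.71 to 12.7 in the heart. The sums of gonad and liver libraries thus overlapped. The label is kept below as a name of these libraries only. In such bulk samples, fewer cells of a type and less RNA per cell cannot be told apart.

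Of the non-mitochondrial counts, collagens took 0.555% to 0.794% in heart libraries, 0.778% to 0.983% in gonad libraries and 0.114% to 0.237% in liver libraries. The liver range lay below the other organs without overlap. Of the 44 members, 43 had a count in an organ library and were tested between organs. In total, 23 were higher in 1 organ than in both others (edgeR quasi-likelihood test, adjusted p under 0.05 in both contrasts). The gonads held 15 of them, against 12.8% of all genes tested. The heart held 7, against 9.77% of all genes, and the liver held 1, against 21.3%. Conversely, 22 members were lower in the liver than in the heart and gonads, against 17.3% of all genes, 7 were lower in the gonads (11.9%) and 3 were lower in the heart (7.16%). Without overlap of any library, the liver was below the other organs for 16 members (8.01% of all genes), the gonads for 4 (4.55%) and the heart for 1, COL11A2 (2.27%). Likewise the gonads were above the others for 11 (6.69%), the heart for 3 (5.54%), which were COL4A1, COL4A6 and COL6A3, and the liver for 1 (10.0%). In the liver, 333 genes had 2 counts or fewer for part of the fetuses and 300 or more for the rest. None of these genes was a collagen, and the heart and the gonads each had 1 gene of this kind. The part of the 333 genes in the liver shares of all genes was not tested.

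**Figure D1:**
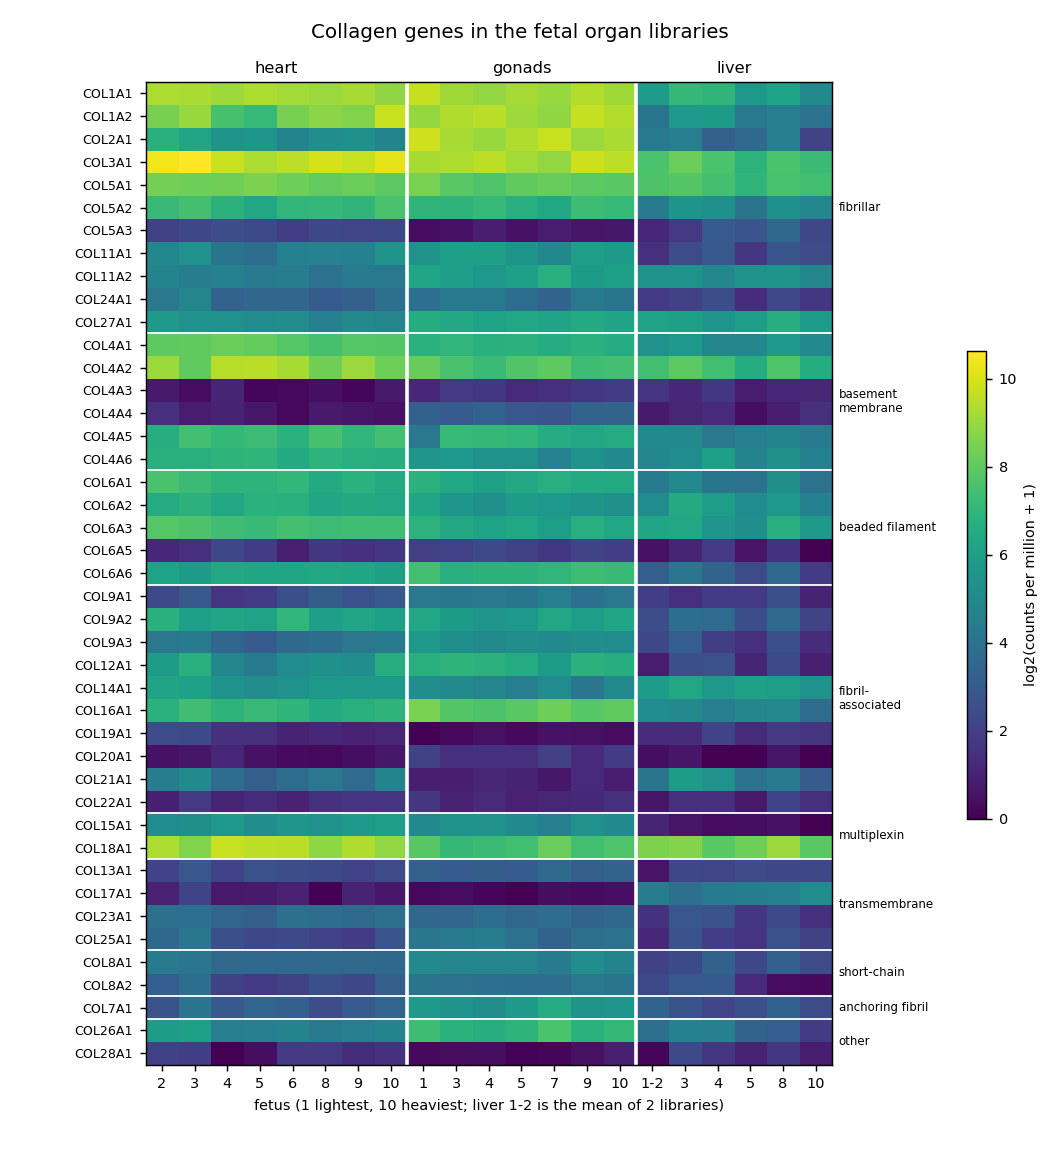
Level of the 43 collagen genes with counts in each of the 21 organ libraries used, as log2(CPM + 1) in colour, with genes in rows by class and libraries in columns by organ and fetus. The liver columns are the darkest for most fibrillar and beaded filament genes, COL2A1 is high in all 7 gonad columns and COL17A1 is at 14.2 CPM or more in the liver columns alone.

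The median difference over the members was 1.26 on the log2 scale between heart and liver and 1.96 between gonads and liver, where the median of all genes was 0 in both. A gene needed a count in only 1 organ library to be tested, so all genes could include some at 0 in both organs compared. Between heart and gonads the members had a median of −0.06, and all genes −0.08. Pairwise, 27 members were higher in the heart than in the liver (25.3% of all genes) and 4 were lower (28.7%). Likewise 29 were higher in the gonads than in the liver (27.9%) and 7 were lower (31.0%). Between heart and gonads, 13 were higher in the heart (21.0%) and 17 in the gonads (20.6%).

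Of the fibrillar class, 8 of 11 members were lower in the liver than in heart and gonads, against 17.3% of all genes. The same held for 5 of 10 fibril-associated chains, 2 of 6 basement membrane chains and 2 of 5 beaded filament chains, and differences between classes were not tested. COL1A1 (Entrez 282187) and COL1A2 (282188) encode the chains of type I collagen, the main fibril of skin, bone and tendon. COL1A1 was at 465 to 642 CPM in the heart (median 587), 478 to 828.6 CPM in the gonads (median 557) and 31.7 to 133 CPM in the liver (median 64.7). The log2 difference was 2.89 ± 0.26 (SE) between heart and liver, with an adjusted p of 1.5e-09, and −0.06 ± 0.22 between heart and gonads, with an adjusted p of 0.868. Heart and gonad libraries thus overlapped and the liver stood below both.

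COL1A2 was at 139 to 858 CPM in the heart (median 369), 459 to 833 CPM in the gonads (median 650) and 15.5 to 54.6 CPM in the liver (median 20.7). The liver was lower than the heart by a log2 difference of 3.73 ± 0.40 (adjusted p = 2.9e-08). The wide range in the heart was not shared by COL1A1. Fetus 10 was highest for COL1A2 and fetus 5 lowest in the heart, whereas COL1A1 stood at 465 CPM in fetus 10 and 636 CPM in fetus 5. Mitochondrial genes took 17.1% of counts in the heart of fetus 10 and 40.8% in that of fetus 5, and the part of this in the result was not tested.

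COL3A1 (510833), which encodes type III collagen of extensible tissues such as vessel walls, was at 641 to 1582 CPM in the heart, 472 to 895 CPM in the gonads and 118 to 299 CPM in the liver. It was the fibrillar gene higher in the heart than in the gonads and liver, by 0.61 ± 0.21 over the gonads (adjusted p = 0.0238) and 2.41 ± 0.24 over the liver (adjusted p = 7.8e-09). Its heart and gonad ranges overlapped. The call over the gonads was lost with the fetus as a block (0.41, adjusted p = 0.181), without the heart of fetus 2 (adjusted p = 0.0512) or 3 (0.0884) and without the gonads of fetus 7 (0.0510).

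COL5A1 and COL5A2 encode chains of type V collagen, which starts fibrils and sets their width. COL5A2 was at 78.4 to 190 CPM in the heart, 81.0 to 160 CPM in the gonads and 16.1 to 43.7 CPM in the liver, without overlap between the liver and the others. COL5A1 (100848491) was less different, at 244 to 369 CPM in the heart, 207 to 354 CPM in the gonads and 125 to 222 CPM in the liver. The liver was lower than the heart by 0.76 ± 0.14 and than the gonads by 0.53 ± 0.15 on the log2 scale (adjusted p = 8.3e-05 and 0.0033), and it was no longer called lower than in both with the fetus as a block. COL5A3, a further chain of that family, went the other way: it was lower in the gonads, at 0.267 to 0.839 CPM, than in the heart (2.88 to 4.63 CPM) and the liver (1.32 to 10.8 CPM).

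Type II and type XI collagens are the fibrils of cartilage. COL2A1 (407142) was at 504 to 928 CPM in the gonads (median 615), 26.4 to 105 CPM in the heart (median 41.8) and 3.49 to 23.1 CPM in the liver (median 16). It was higher in the gonads by 3.73 ± 0.35 over the heart (adjusted p = 8.2e-09) and by 5.48 ± 0.44 over the liver (adjusted p = 1.8e-10). The ranges of the 3 organs did not overlap. The cartilage markers beside it were low in all organs. ACAN, the aggrecan gene, was at 0.553 to 0.721 CPM in the gonads, and COMP and MATN3 were at most 0.553 and 1.0 CPM there. The whole list of 7 summed to 31.3 to 51.1 CPM in the gonads and 29.1 to 35.6 CPM in the heart, of which CNMD made up at least 26.8 CPM in the heart and 29.7 CPM in the gonads.

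COL11A1 and COL11A2, the type XI chains, were both higher in the gonads than in the other organs. COL11A1 was at 30.5 to 65.1 CPM in the gonads, 13.3 to 43.8 CPM in the heart and 1.68 to 7.11 CPM in the liver. COL11A2 was at 49.5 to 102 CPM in the gonads, 14.9 to 26.7 CPM in the heart and 28.8 to 44.0 CPM in the liver. The heart and liver thus changed places between these partners of 1 molecule: COL11A2 was lowest in the heart and COL11A1 in the liver. COL27A1, a fibrillar collagen of cartilage, was also lowest in the heart, at 23.9 to 51.5 CPM against 45.5 CPM or more in the other organs, and COL24A1 was lowest in the liver.

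In the basement membrane network, the chains COL4A1 (282191) and COL4A2 (508632), which join into the common form of type IV collagen, were both higher in the heart. COL4A1 was at 183 to 294 CPM in the heart (median 243), 93.4 to 126 CPM in the gonads (median 109) and 28.1 to 52.4 CPM in the liver (median 35.5). The heart exceeded the gonads by 1.18 ± 0.15 (adjusted p = 5.7e-07) and the liver by 2.64 ± 0.16 (adjusted p = 2.4e-12), and the 3 ranges did not overlap.

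COL4A2 was at 263 to 732 CPM in the heart, 152 to 281 CPM in the gonads and 94.2 to 243 CPM in the liver. Unlike COL4A1, it was not called different between gonads and liver (0.31 ± 0.26, adjusted p = 0.311). COL4A6, a chain of smooth muscle and epithelial basement membranes, was at 89.1 to 123 CPM in the heart, above all gonad (25.2 to 49.2 CPM) and liver (24.5 to 63.1 CPM) libraries. Its neighbour in the genome and partner chain COL4A5 was at 96.7 to 185 CPM in the heart and 18 to 139 CPM in the gonads, where the log2 difference of 0.55 ± 0.27 was not called (adjusted p = 0.108), and was lower in the liver at 17.8 to 32.8 CPM.

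COL4A3 and COL4A4 encode chains of the mature basement membrane of the kidney glomerulus. COL4A4 (407107) was higher in the gonads, at 6.01 to 9.51 CPM, than in the heart (0.162 to 1.72 CPM) and the liver (0.322 to 1.75 CPM). The log2 differences were 3.43 ± 0.40 and 2.95 ± 0.44 (adjusted p = 2.5e-07 and 4.4e-06). COL4A3 was lowest in the heart and did not pass the test between gonads (1.36 to 2.7 CPM) and liver (0.773 to 2.30 CPM). The podocyte gene NPHS1 was at 3.02 to 14.1 CPM in the gonads and at most 0.25 CPM in the other organs. Its part in the result was not tested.

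Among the beaded filament chains, which form the microfibrils around muscle and other cells, COL6A2 and COL6A3 were higher in the heart. COL6A3 (530657) was at 141 to 223 CPM in the heart, above all libraries of the gonads (61.1 to 115 CPM) and liver (35.5 to 100 CPM), with a smaller log2 difference of 1.04 ± 0.19 (adjusted p = 7.8e-05). COL6A2 was at 77.9 to 114 CPM in the heart, 39.2 to 74.1 CPM in the gonads and 24.6 to 88.1 CPM in the liver. COL6A1, the remaining partner of the same molecule, was at 89.5 to 190 CPM in the heart and 67.3 to 114 CPM in the gonads, and its difference of 0.48 ± 0.20 missed the test (adjusted p = 0.0612). With all deposited libraries, COL6A1 and COL5A1 were also called higher in the heart than in the gonads and liver.

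COL6A6, a chain that can take the place of COL6A3, was higher in the gonads, at 101.1 to 168 CPM, than in the heart (54.5 to 83.6 CPM) and the liver (2.59 to 16.8 CPM), without overlap. That call over the heart was lost with the fetus as a block (0.86, adjusted p = 0.0624). COL6A5 was at 4.05 CPM or less in every organ library and was neither higher nor lower than both others in any organ, except that with all deposited libraries it was called lower in the liver.

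The fibril-associated collagens, which coat fibrils and link them to their surroundings, divided between the organs. COL9A1 (282195), COL9A3, COL16A1 and COL20A1 were higher in the gonads. COL16A1 was at 200 to 355 CPM there, 89.7 to 165 CPM in the heart and 13.1 to 35.2 CPM in the liver. COL9A1 was at 13.7 to 23.1 CPM in the gonads, 2.05 to 7.73 CPM in the heart and 1.10 to 5.04 CPM in the liver. COL9A2, whose product joins those of COL9A1 and COL9A3 in type IX collagen of cartilage, was instead at 61.8 to 126 CPM in the heart and 45.8 to 81.5 CPM in the gonads, a difference that was not called (0.33 ± 0.25, adjusted p = 0.297). COL20A1 stayed at 3.31 CPM or less, and its call was lost with the fetus as a block (adjusted p = 0.125).

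COL12A1 (359712) was at 58.5 to 118 CPM in the gonads, 19.8 to 108 CPM in the heart and 0.815 to 5.30 CPM in the liver. It was lower in the liver than in the heart by 4.20 ± 0.48 (adjusted p = 8.4e-08), and the gonads exceeded the heart by 0.91 ± 0.38 (adjusted p = 0.0555). With all deposited libraries COL12A1 was called higher in the gonads than in the heart and liver. Conversely, COL14A1, COL19A1 and COL21A1 were lower in the gonads than in the heart and liver. COL21A1 was at 0.619 to 1.51 CPM in the gonads, 8.42 to 32.3 CPM in the heart and 7.17 to 55.8 CPM in the liver, and COL14A1 at 17.1 to 36.0 CPM, 37.4 to 72.1 CPM and 42.9 to 78.7 CPM. COL22A1 was at 0.561 to 3.46 CPM and was called in no contrast.

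The multiplexins COL15A1 and COL18A1 carry sugar chains and sit at basement membranes, and their C-terminal fragments are known as inhibitors of vessel growth. They had opposite organs of lowest level. COL15A1 (100139730) was at 35 to 61.1 CPM in the heart and 23.4 to 41.6 CPM in the gonads but at 0 to 1.17 CPM in the liver, with a log2 difference of 6.62 ± 0.39 between heart and liver (adjusted p = 7.7e-13). COL18A1 (508076) was at 391 to 855 CPM in the heart (median 650), 237 to 517 CPM in the liver (median 339) and 135 to 296 CPM in the gonads (median 170). It was higher in the heart by 1.69 ± 0.22 over the gonads (adjusted p = 8.7e-07) and 0.85 ± 0.22 over the liver (adjusted p = 0.0023), and it was lower in the gonads than in the liver.

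COL17A1 (513804), a transmembrane collagen that ties basal skin cells to their basement membrane, was the single member higher in the liver than in the heart and gonads. It was at 14.2 to 33.6 CPM in the liver (median 21.7), 0 to 3.37 CPM in the heart (median 0.833) and 0 to 0.335 CPM in the gonads (median 0.235). The liver exceeded the heart by 4.43 ± 0.63 (adjusted p = 2.3e-06) without overlap. The epidermis markers KRT5 and KRT14 were at most 0.0834 CPM in the liver, KRT14 being at 0 in every liver library, and TP63 was at 0 to 3.07 CPM. Of the other transmembrane collagens, COL13A1 and COL25A1 were higher in the gonads (7.48 to 11.5 and 9.31 to 21.6 CPM) and COL23A1 was lower in the liver (1.68 to 6.34 CPM).

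COL7A1 (507133), which forms the anchoring fibrils under epithelia, was at 36.6 to 92.3 CPM in the gonads, 4.79 to 16 CPM in the heart and 3.63 to 9.38 CPM in the liver. The gonads exceeded the heart by 2.59 ± 0.26 (adjusted p = 2.7e-08) and the liver by 3.08 ± 0.30 (adjusted p = 6.3e-09). COL26A1 was likewise higher in the gonads, at 98.3 to 196 CPM against 20 to 65.6 CPM in the heart and 2.59 to 24.6 CPM in the liver.

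The short-chain collagens COL8A1 and COL8A2, which build the lattice under vessel and corneal endothelium, were at 19.9 to 35.6 and 12.9 to 18 CPM in the gonads. Both were higher there, but COL8A2 only narrowly over the heart (2.45 to 13.3 CPM), by 1.31 ± 0.52 (adjusted p = 0.0454). That call was lost in 13 of the 21 fits with 1 library left out (all 7 gonad libraries and the hearts of fetuses 2, 4, 5, 6, 8 and 9), at an adjusted p of up to 0.0815, and with the fetus as a block (adjusted p = 0.205). COL28A1 was lower in the gonads, at 0.0614 to 0.938 CPM, a call that was lost with the fetus as a block.

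COL10A1, the collagen of growing cartilage that turns to bone, held 0 counts in all 36 libraries. Taken alone, a count of 0 allows up to 3 counts, or 0.165 CPM in the shallowest library, for counting error only. However, 9408 of the 35092 rows were at 0 in every library, among them TIMP1 and TIMP3, which most tissues express, and the marker genes OGN, IBSP and KRT1. Such a 0 is therefore given as listed and not as absence.

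**Figure D2:**
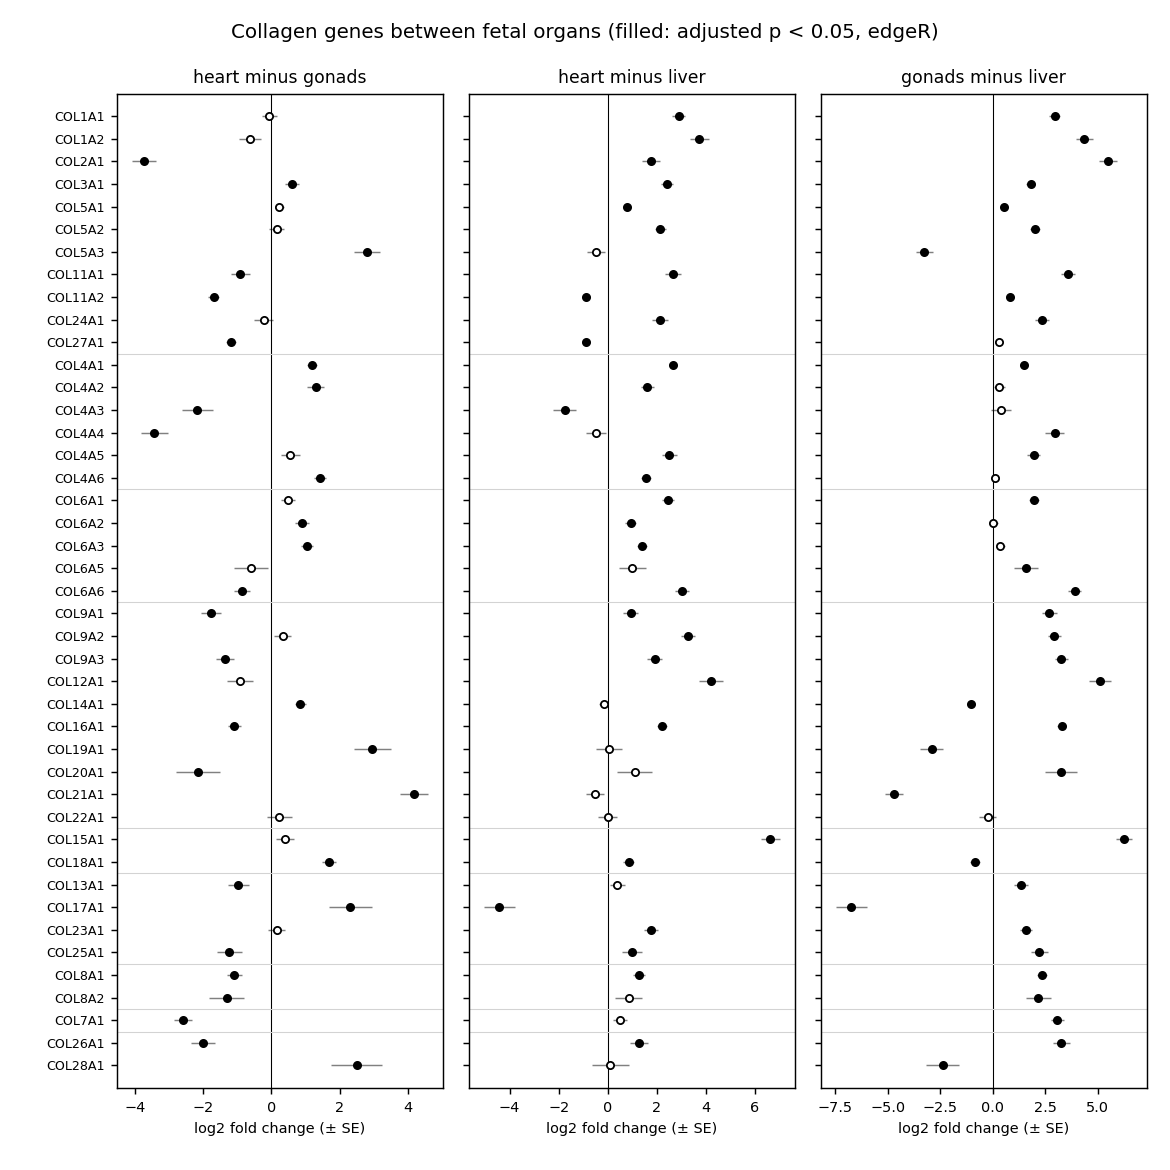
Log2 fold change ± SE of each collagen gene between 2 organs, from the edgeR fit of 21 organ libraries, with 1 panel per contrast and genes by class. Filled points passed an adjusted p of 0.05, and 27 and 29 of 43 genes lie filled to the right of 0 in the panels against the liver.

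Genes that build, carry, cross-link, bind or degrade collagen were counted from a list of 68, of which 64 were tested. In the liver, 30 of them were lower than in both other organs (17.3% of all genes) and 10 were higher (21.3%). The heart held 18 higher genes (9.77%) and the gonads 5 (12.8%). The partners of collagen IV in the basement membrane had 6 of 10 genes higher in the heart and 9 of 10 lower in the liver. The largest smaller difference among them was that of LAMA2, the laminin chain of muscle basement membranes. It was at 226 to 438 CPM in the heart, 24.7 to 53.5 CPM in the gonads and 1.02 to 6.28 CPM in the liver (3.02 ± 0.31 over the gonads, adjusted p = 3.5e-08).

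The other heart genes of that rule were BGN, the small fibril-binding proteoglycan biglycan, and the gelatinase MMP9. BGN was at 179 to 498 CPM in the heart and at most 46.6 CPM elsewhere (3.33 ± 0.25 over the liver, adjusted p = 5.8e-11). MMP9 stayed at 1.22 CPM or less in the heart and 0.214 CPM or less elsewhere. In the gonads they were the laminin chain LAMA1 (39.0 to 57.7 CPM, against 17.4 CPM or less elsewhere), P4HA3 and MMP14, the last at 3.01 CPM or less. In the liver they were the platelet collagen receptor GP6 at 6.79 to 14.2 CPM, the cross-linking oxidase LOXL1 and MMP8. LOXL1 ran from 0.0417 to 28.2 CPM there, so its call rests on uneven livers, and not every liver library lay above the other organs. It exceeded the heart by 2.16 ± 0.77 (adjusted p = 0.0214) and the gonads by 2.37 ± 0.81 (adjusted p = 0.0150). MMP8 was at 0 in all heart and gonad libraries and at most 0.815 CPM in the liver. The platelet markers beside GP6 summed to 290.3 to 446.0 CPM in the liver and at most 42.2 CPM in the other organs.

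The collagen chaperone SERPINH1 was at 40.7 to 91.9 CPM in the liver, 191 to 242 CPM in the gonads and 242 to 407 CPM in the heart, and was lower in the liver than in both. By contrast, the shared prolyl hydroxylase subunit P4HB was called in neither direction in any organ, at 134 to 360 CPM. Of 14 tested modification enzymes, 5 were lower in the liver (17.3% of all genes) and 2 were higher (21.3%), and of 10 receptors 5 were lower and 2 higher.

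Chains that share a molecule, or whose genes are neighbours, were then compared within each library as a ratio of counts, which no scaling between libraries can change. Chain lengths were not used, so a ratio is read only between organs. Over 7 ratios and 3 organ pairs, 13 of 21 comparisons passed (two-sided exact permutation test on log2 ratios, adjusted over 21), and in 10 the libraries did not overlap. With all libraries, the smallest p that the test allows was 0.00031 between heart and gonads, 0.00067 between heart and liver and 0.0012 between gonads and liver.

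The COL1A1/COL1A2 ratio was 0.542 to 4.58 in the heart (median 1.60), 0.657 to 1.71 in the gonads (median 0.856) and 2.05 to 3.49 in the liver (median 2.56). The liver exceeded the gonads by 1.45 on the log2 scale without overlap (exact permutation, adjusted p = 0.0027). The heart spanned the range of both and differed from neither at the threshold (exact permutation, adjusted p = 0.094 against the gonads and 0.117 against the liver). The heart values ran from 0.542 in fetus 10 to 2.93 in fetus 4 and 4.58 in fetus 5. Without fetus 10, the difference from the gonads passed (exact permutation, adjusted p = 0.0106), as it did without the gonads of fetus 1 (0.0494), and without the heart of fetus 5 that from the liver did (0.0163). With all deposited libraries, heart and gonads differed at an adjusted p of 0.0265 by the exact permutation test.

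For COL4A1/COL4A2, the median was 0.467 in heart, 0.544 in gonad and 0.245 in liver libraries. The liver ratios of 0.164 to 0.325 lay below all others, by 1.07 against the heart and 1.14 against the gonads on the log2 scale (exact permutation, adjusted p = 0.0027 for both). In the heart, fetus 3 stood highest at 0.978 and all others were at 0.714 or less. The collagen VI pair behaved likewise. COL6A1/COL6A2 was 0.272 to 0.765 in the liver, 1.10 to 2.04 in the heart and 1.51 to 2.28 in the gonads (exact permutation, adjusted p = 0.0027 for the liver against either, and 0.0136 between heart and gonads, whose ranges overlapped).

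COL4A3/COL4A4 could be read in 5 of 8 heart libraries and in all others, at 10 counts or more of each chain. It was 0.156 to 0.317 in the gonads, 0.333 to 1.62 in the heart and 0.704 to 3.0 in the liver. The gonads lay below the heart by 1.40 and below the liver by 2.66 on the log2 scale without overlap (exact permutation, adjusted p = 0.0048 and 0.0027). The heart against the liver gave an adjusted p of 0.0714 by the exact permutation test, 0.0428 with all deposited libraries and 0.0267 without the heart of fetus 10.

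COL4A5/COL4A6 was 0.968 to 1.78 in the heart, 0.282 to 1.10 in the liver and 0.393 to 3.70 in the gonads. The gonad library of fetus 1 stood apart at 0.393, with 674 counts of COL4A5 and 1714 of COL4A6, whereas the other 6 were at 1.96 or more. The liver lay below the heart by 0.89 and below the gonads by 1.60 on the log2 scale (exact permutation, adjusted p = 0.0028 and 0.0188). Heart and gonads differed by 0.70 (exact permutation, adjusted p = 0.13), and without that library by 1.11 (adjusted p = 0.0023). The exact permutation test with all deposited libraries gave 0.0267.

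COL9A1/COL9A2 was 0.0267 to 0.125 in the heart, 0.218 to 0.385 in the gonads and 0.135 to 0.624 in the liver. The heart lay below the gonads by 2.21 and below the liver by 2.46 on the log2 scale (exact permutation, adjusted p = 0.0027 for both), while gonads and liver overlapped. COL3A1/COL5A2, neighbouring fibrillar genes, was 5.87 to 9.35 in the heart and 4.88 to 5.82 in the gonads without overlap (exact permutation, adjusted p = 0.0027). The liver, at 4.97 to 10.4, overlapped both, and its difference of 0.22 from the heart passed only without the averaged liver of fetuses 1 and 2 (0.36, exact permutation, adjusted p = 0.0490).

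**Figure D3:**
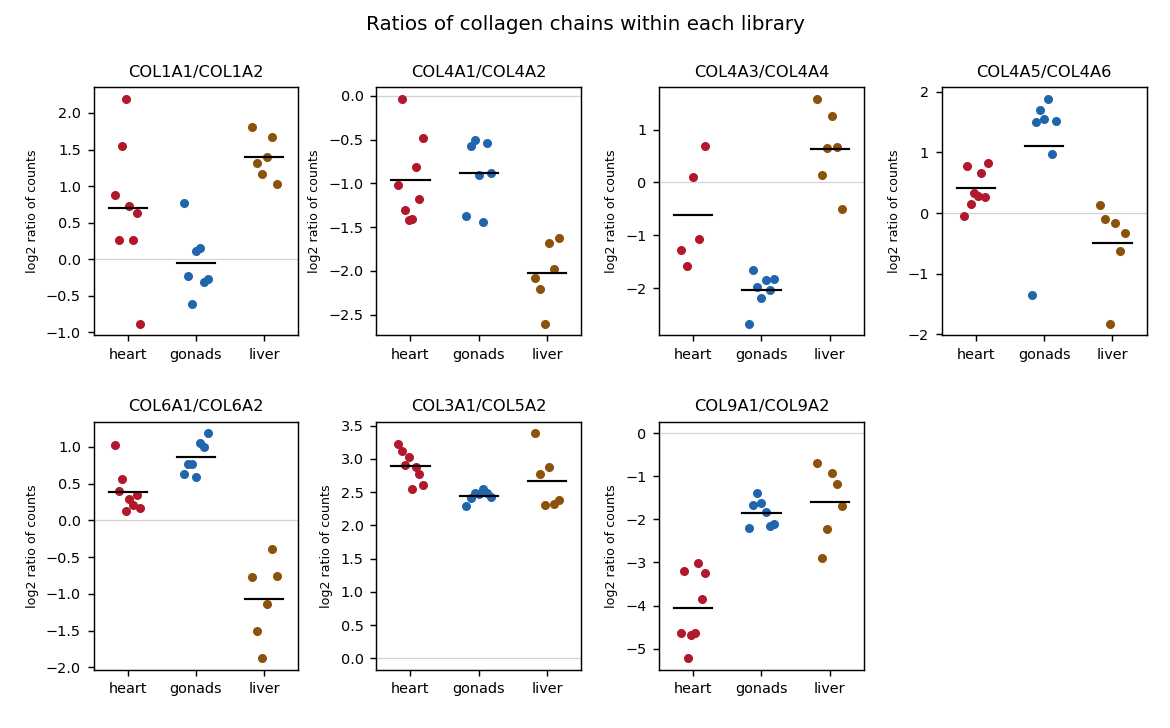
Log2 ratio of counts of 7 pairs of collagen chains in each organ library (points) with the organ mean (line). The liver points lie below all others for COL4A1/COL4A2 and COL6A1/COL6A2, the heart points are lowest for COL9A1/COL9A2, and 1 gonad point, fetus 1, lies far below the rest for COL4A5/COL4A6.

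Along fetal weight, no member passed the linear term in any tissue by edgeR. In the heart 42 members were tested, and 1 positive and 7 negative slopes passed an unadjusted 0.05 (13.0% and 9.68% of all genes). By edgeR no gene of the heart passed after adjustment (0.00% of all genes in either direction), whereas DESeq2 called 2 members falling, COL27A1 and COL6A1. In the gonads, 1 of 43 slopes was positive at an unadjusted 0.05 (2.55% of all genes) and none was negative (1.70%), and DESeq2 called none. In the liver, 5 of 41 slopes were negative at that level (5.20%) and none was positive (1.86%), and DESeq2 called 2 falling, COL8A2 and COL26A1. By edgeR, 0.734% of all liver genes fell after adjustment and 0.0128% rose. Shares of all genes by DESeq2 were not at hand, so its counts of members have no background here.

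In the heart, 28 of 42 slopes were negative, with a median of −0.06 log2 units per 0.1 g, where the median of all genes was −0.02. Over the same hearts the mitochondrial share was 57.3% in fetus 2, 23.5% in fetus 3 and 39.0% to 41.5% in fetuses 4 to 6. It was 25.5%, 28.5% and 17.1% in fetuses 8, 9 and 10. The endothelium markers summed to 237.2 CPM in fetus 2 and 392.4 CPM in fetus 10. The part of the mitochondrial share and of these markers in the result was not tested. The smallest p-values belonged to COL27A1, COL6A1 and COL19A1. COL27A1 was at 51.5 CPM in fetus 2, the lightest of the hearts used, at 35.3 to 40.3 CPM in fetuses 3 to 6 and at 23.9 to 30.9 CPM in fetuses 8 to 10. Its slope was −0.19 ± 0.05 (edgeR, adjusted p = 0.127). The slope passed in DESeq2 (adjusted p = 0.0311), with all deposited libraries (0.0462) and without the heart of fetus 3 (0.0396). COL6A1 was at 190 CPM in fetus 2 and 89.5 CPM in fetus 10, with a slope of −0.19 ± 0.06 (edgeR adjusted p = 0.130, DESeq2 adjusted p = 0.0359). COL19A1 had a slope of −0.44 ± 0.14 (adjusted p = 0.138) at 4.57 CPM or less. No member passed the spline term in the heart, where 5 did at an unadjusted 0.05 (6.32% of all genes).

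In the gonads, where slopes lay around 0 (25 of 43 positive, median 0.01), 3 members passed the spline term, against 17.6% of all genes. At an unadjusted 0.05, 17 passed (31.9%). The 3 members were COL4A5, COL7A1 and COL18A1. COL4A5 was at 18 CPM in fetus 1, the lightest, and at 80.8 to 139 CPM in the others (adjusted p = 1.1e-09). COL7A1 was at 92.3 CPM in fetus 7 and 36.6 to 52.7 CPM in the others (adjusted p = 0.0061). COL18A1 was highest in fetus 7 as well, at 296 CPM, followed by fetus 1 at 236 CPM and the others at 135 to 205 CPM (adjusted p = 0.0275). The gonad library of fetus 7 also had the highest mitochondrial share, 7.23%, the lowest sum of fibroblast markers, 255.3 CPM against 333.6 CPM or more in the others, and the highest sum of erythroid markers, 55.9 CPM against 28.2 CPM or less. The part of these in the result was not tested. No member passed with a 2 degree spline or with all deposited libraries, 1 did without the library of fetus 3 or of fetus 4, and 15 did without that of fetus 10. The share of all genes passing in these fits was not at hand, so the counts are not read as a result about collagens.

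In the liver, 30 of 41 slopes were negative with a median of −0.14 per 0.1 g, where all genes had −0.01. COL8A2, COL26A1, COL21A1, COL1A1 and COL1A2 passed the spline term, against 3.82% of all genes, and 7 did at an unadjusted 0.05 (8.07%). COL8A2 was at 4.28 CPM in the averaged library of fetuses 1 and 2, at 6.69 and 6.97 CPM in fetuses 3 and 4, at 1.45 CPM in fetus 5 and at 0.292 and 0.194 CPM in fetuses 8 and 10. The ET_D9 libraries used, those of fetuses 8 and 10, thus lay below all ET_D7 libraries. They rest on few reads, as COL8A2 fell to 3 counts in the lowest deposited liver library. Its spline term had an adjusted p of 0.0042. Its linear slope was −1.45 ± 0.34 (edgeR, adjusted p = 0.12; DESeq2, 3.6e-04; all deposited libraries, 0.0370). COL26A1 was at 24.6 and 24.0 CPM in fetuses 3 and 4, 14 CPM in fetuses 1 and 2 and 2.59 CPM in fetus 10 (spline adjusted p = 0.0080, linear slope −0.74 ± 0.20).

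COL1A1, COL1A2 and COL21A1 shared a peak in the livers of fetuses 3 and 4. COL1A1 was at 133 and 123 CPM there and at 31.7 to 71.7 CPM in the others (adjusted p = 0.0199). COL1A2 was at 53.4 and 54.6 CPM there and at 15.5 to 22.5 CPM in the others (adjusted p = 0.0275). COL21A1 was at 55.8 and 40.3 CPM against 7.17 to 20.6 CPM (adjusted p = 0.0031). The same 2 libraries held the highest sums of cardiomyocyte markers, 1963 and 653.8 CPM against 7.30 to 370.3 CPM in the other livers. Most of that sum was ACTC1, at up to 1862 CPM, while MYL7 was at 3.35 to 11.2 CPM and MYH6 at most 0.741 CPM. The rest of the sum came from TNNT2, MYH7 and MYL3, so it was not ACTC1 alone. Fibroblast markers summed to 97.4 and 108.2 CPM in these livers, within the range of the others (102.6 to 161.2 CPM) or below it. Stellate cell markers summed to 104.6 and 165.9 CPM, against 97.2 to 144.3 CPM. Their part in the result was not tested.

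The liver spline used 4 terms on 6 libraries and was not stable. No member passed without the liver of fetus 3, 4 or 10, with a 2 degree spline or without the filter on low counts, 2 passed without the averaged livers of fetuses 1 and 2, and 1 passed with all deposited libraries.

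**Figure D4:**
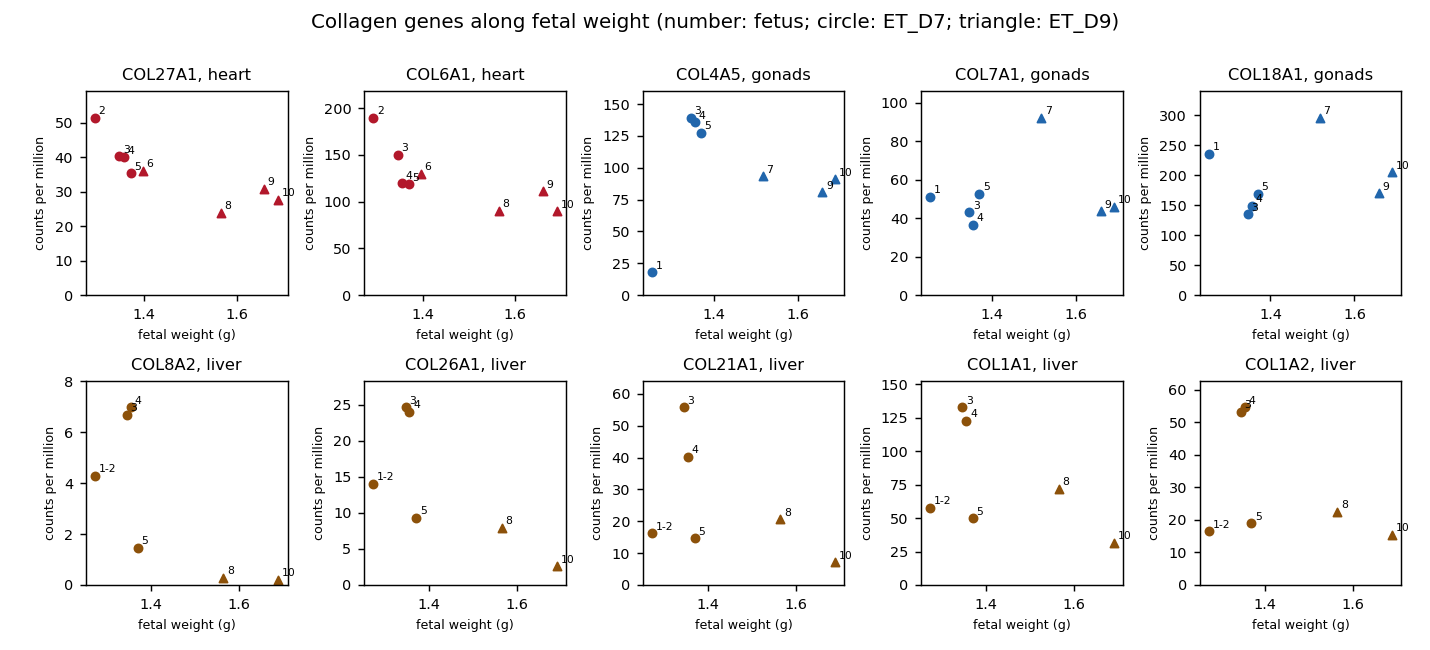
CPM of collagen genes against fetal weight in g for the 2 heart genes with the smallest p-values and the gonad and liver genes that passed the spline term, 1 point per library, with circles for ET_D7 and triangles for ET_D9. Fetus 1 is alone at the bottom for COL4A5, fetus 7 alone at the top for COL7A1, and fetuses 3 and 4 stand above the other livers for COL1A1 and COL1A2.

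Whether the slope differed between organs was tested as an interaction. It passed for 1 of 43 members, COL8A2 (edgeR, adjusted p = 0.0495), against 1.72% of all genes, and at an unadjusted 0.05 for 3 (12.8%). Its slopes were −1.41 per 0.1 g in the liver, −0.04 in the heart and 0.05 in the gonads. The call was lost without the mitochondrial genes (adjusted p = 0.0508), with DESeq2 size factors (0.0533) and without the filter (0.0593). With 1 library left out, its adjusted p ran from 0.0165 to 0.247, and in 15 of 21 such fits no member was called.

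In maternal blood, whose libraries were made with another kit and are not compared in level with the organs, 14 of 44 members had 10 counts or more in all 10 libraries and 22 had a count in all. Collagens took 0.0122% to 0.0724% of the non-mitochondrial counts. COL18A1 varied little between heifers, at 46.6 to 76.9 CPM. COL5A1 ranged from 7.40 to 17.1 CPM, COL7A1 from 2.33 to 6.45 CPM and COL14A1, a fibril-associated collagen, from 10.9 to 39.5 CPM. The others with 10 counts in every library were COL11A2, COL15A1, COL17A1, COL1A1, COL1A2, COL4A2, COL4A3, COL5A3, COL6A3 and COL9A2.

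Type I collagen was uneven between heifers. COL1A1 had 8152 counts in heifer 1 and 12414 in heifer 10, and 22 to 674 counts in the other 8. COL1A2 had 4904 and 7420 counts in the same heifers and 22 to 547 in the others. Together both genes made up 75.5% of all collagen counts in heifer 1 and 69.2% in heifer 10, and 0.907% to 18.2% elsewhere. These were the heifers of the lightest and the heaviest fetus.

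SPARC, which encodes a collagen-binding protein of bone and platelets and was chosen after its values were seen, had 1784 and 2031 counts in heifers 1 and 10 and 46 to 240 in the others. The bone markers RUNX2, SP7, IBSP and BGLAP summed to 2733 and 3908 counts there, within the 2394 to 4655 counts of the others, but RUNX2 made up 2702 and 3796 of them. BGLAP, the osteocalcin gene, had 104 counts in heifer 10, 29 in heifer 1 and 2 to 40 in the others, SP7 had at most 10 and IBSP was at 0 throughout. Platelet markers summed to 13318 and 15024 counts, within 6892 to 26973, and fibroblast markers to 260 and 396 counts, within 153 to 425.

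Other members were highest in heifers 1 and 10 as well, on fewer counts. COL5A1 had 428 and 674 counts there (15.6 and 17.1 CPM) and 200 to 416 in the others (9.61 CPM or less). COL5A2 had 174 and 206 counts there and at most 96 in the others, and COL11A1 had 52 in both and at most 13 in the others. COL13A1 had 42 and 32 counts against at most 4, and COL22A1 had 32 and 50 against at most 21. The proteoglycan gene BGN had 78 and 90 counts against at most 26. These were picked after their values were seen.

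COL3A1 was highest in heifer 7, at 1044 counts, with 562 in heifer 10, 170 in heifer 1 and 4 to 196 in the others. COL6A1 and COL6A2 also peaked in heifer 7, at 234 and 120 counts, and the proteoglycan gene DCN was at 212 counts there, against 0 to 136 in the others. COL11A2 was highest in heifer 10, at 1862 counts against 118 to 556. COL4A2 and COL4A3 were highest in heifer 2, at 594 and 142 counts. In that library MYH7, a myosin of heart and slow skeletal muscle chosen after its values were seen, had 144426 counts, with 29233 in heifer 5 and at most 701 in the others. Of the other cardiomyocyte markers, MYH6 had 878 and 329 counts in heifers 2 and 5 and at most 14 in the others. ACTC1 had 96 and 38 counts in these heifers and at most 2 in the others. TNNT2 had 8 and 0, with 4 in heifer 6. MYL7 had 0 in both, with 10 in heifer 6, and MYL3 had 48 and 24, with 27 in heifer 1. Their part in the result was not tested.

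**Figure D5:**
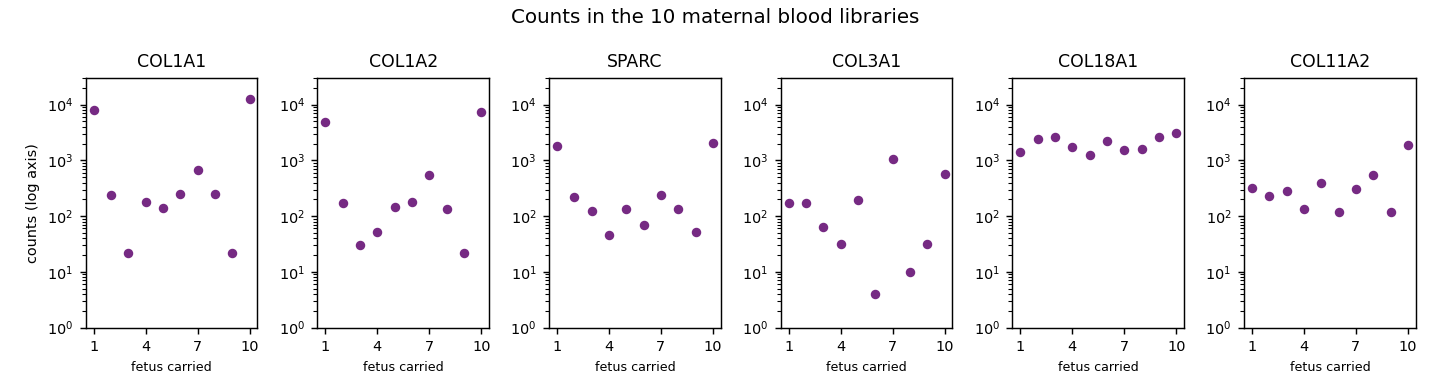
Counts, on a log axis, of 5 collagen genes and SPARC in each maternal blood library by the number of the fetus carried. Heifers 1 and 10 lie far above the rest for COL1A1, COL1A2 and SPARC, heifer 7 is highest for COL3A1, and COL18A1 is level.

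Along fetal weight, 32 members were tested in blood, and none passed the linear or spline term by edgeR (0.00% of all genes on the linear term and 0.129% on the spline). On the linear term, 1 slope was positive (4.53% of all genes) and 3 were negative (5.16%) at an unadjusted 0.05, and DESeq2 called none. On the spline 6 passed at that level (9.77%). The 3 smallest linear p-values were those of COL4A3 (slope −0.51 ± 0.14, adjusted p = 0.372), COL14A1 (−0.22 ± 0.08, adjusted p = 0.450) and COL6A6 (−0.70 ± 0.29, adjusted p = 0.486). COL4A3 ran from 1.16 CPM at the median to 3.28 CPM in heifer 2 and 0.355 CPM in heifer 10. COL6A6 was at 0 in heifer 8 and at most 1.25 CPM.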

How the data were processed

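The authors deposited 1 table of raw counts per Entrez gene for 36 libraries. Per the labels, organ libraries were made with a stranded mRNA kit and blood libraries with a SMARTer stranded kit, sequenced as read pairs, and the submitters' processing notes name FastQC 0.11.9, Trimmomatic, STAR 2.7.0b and featureCounts of Subread 2.0.3. The count options for pairs and strand are not given in the sources used here, so values of overlapping genes are uncertain. Of counts from 1 to 10, 64.5% to 85.6% were even, depending on the tissue. Symbols came from RefSeq (31630 of 35092 rows matched). Members and lists were chosen with earlier results of these data known.

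Counts were scaled by TMM and tested with edgeR 4.0.16 (quasi-likelihood), with Benjamini-Hochberg adjustment over all genes tested. The organ fit used 21 libraries and all genes with a count (24881). Its CPM are printed for organ libraries throughout. Weight was fitted within each tissue, scaled there, as a linear term per 0.1 g and as a natural spline with 3 degrees of freedom, for genes with 10 counts in 4 libraries. Slopes between organs were compared in 1 fit of all organs. All 26 organ libraries had been planned. Those within sampling noise of others or closer (non-negative least squares on genes of the same organ and transfer group) were left out or averaged after the counts were seen. Ratios were tested by exact permutation (scipy). Alternatives were DESeq2 1.42.0, its size factors, no mitochondrial genes, other filters, a fetus block, the transfer group, a 2 degree spline, each library left out, and all deposited libraries, the last chosen after seeing the data. The tests were tried on simulated counts. Libraries of different organs with the same number came from 1 fetus. Deviations from the organ means correlated between them at −0.227 to 0.354.

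Genes named were, per tissue, the 6 members highest in CPM (no transcript lengths were at hand, so levels are not compared between genes), up to 6 members per organ with the largest smaller fold change, members passing a weight term or else the 3 with the smallest p, members with 10 counts in every blood library, the chains of the ratios, members at 0, and 3 pathway genes per organ. P-values measure the spread between samples, 1 per animal within a tissue apart from the averaged liver sample. The main organ fit and the ratio tests treated organs of the same fetus as independent samples. With the fetus as a block in the organ fit, some calls between organs were lost and others gained, as listed below. No sequence or coordinate is given because the reference table used for names is of another assembly than the one the study named for its alignment.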

Additional observations from a re-analysis of the deposited data

Results flagged for a closer look

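Among 149 groups of values, for 32 members in 4 tissues and for the chain ratios, 13 had 1 sample far from all others by Dixon's test at the 95% level. For normally distributed values, chance gives this in about 1 of 20 groups. The CPM were tested without a log scale and every CPM outlier was on the high side, so that rate may not hold here. In maternal blood, heifer 10 stood apart for COL11A2 (47.2 CPM) and COL9A1 (0.152 CPM), heifer 9 for COL26A1 (2.31 CPM), heifer 7 for COL3A1 (39.3 CPM), COL6A1 (8.81 CPM) and COL6A2 (4.52 CPM), and heifer 2 for COL4A2 (13.7 CPM) and COL4A3 (3.28 CPM). The COL9A1 value rests on 6 counts in heifer 10 against 0 in all other heifers. COL1A1 and COL1A2 in blood were not among the outliers, because heifers 1 and 10 were both high. In the heart, fetus 3 stood apart for COL17A1 (3.37 CPM) and fetus 4 for COL20A1 (1.25 CPM). In the gonads, fetus 7 stood apart for COL7A1 (92.3 CPM) and COL9A1 (23.1 CPM), and fetus 1 for the COL4A5/COL4A6 ratio, whose log2 value was −1.35.

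The weight slope of COL8A2 differed between organs by the interaction test (edgeR, adjusted p = 0.0495), with the liver slope negative and the others near 0. In 15 of 21 fits with 1 library left out, no member was called.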

How the results depend on the processing

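Of 1333 recomputed values of single genes and ratios, 1286 kept their direction and side of the threshold, 20 lost a call, 21 gained one and 6 turned. DESeq2 size factors moved the median of all genes by −0.12 between heart and liver and −0.11 between gonads and liver, and left the counts of members higher in each organ as they were. With the replicate block (fetus), the heart had 6 higher members, the gonads 13 and the liver 1, and 20 were lower in the liver. The calls of COL3A1, COL6A6, COL8A2 and COL20A1 for the heart and gonads were lost and that of COL12A1 for the gonads was gained. Of those lower in the liver, COL5A1, COL9A1 and COL25A1 were lost and COL7A1 was gained, and COL28A1 was no longer called lower in the gonads. With all deposited libraries 23 were lower in the liver, COL6A5 being added. A log2 fold change above 1 left 4 members higher in the heart. With 1 library left out, the heart had 6 to 8 higher members, the gonads 14 to 17 and the liver 1, and 21 to 23 were lower in the liver, and 13 to 15 ratio comparisons passed.

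Shares of all genes were not at hand for the fits in this paragraph, so its counts of members have no background. On the linear term, members falling in the heart numbered 2 by DESeq2, 1 with all deposited libraries and 0 to 1 with 1 library left out, and in the liver 2, 1 and 0 to 4. With the transfer group in place of weight, 1 fell in the liver. On the spline term the gonads had 0 with 2 degrees of freedom, 0 with all deposited libraries and 1 to 15 with 1 library left out. The liver had 3 without mitochondrial genes, 0 without the filter, 0 with 2 degrees of freedom, 1 with all deposited libraries and 0 to 5 with 1 library left out. The interaction gave 0 members with DESeq2 size factors, without mitochondrial genes and without the filter, 2 with all deposited libraries and 0 to 1 with 1 library left out. Slopes that turned, none past the threshold, were those of COL7A1 (−0.46) and COL18A1 (−0.42) in the gonads and COL1A2 (0.24) in the liver with the transfer group as covariate, COL4A5 in the gonads as a group difference (−0.22) or without fetus 1 (−0.19), and COL7A1 in the gonads without fetus 7 (−0.0019). With 1 library left out these ran from −0.19 to 0.073 for COL4A5 and from −0.0019 to 0.12 for COL7A1. The cause was not tested. Ratios per transcript length were not run.

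The weight results rest on 6 to 10 libraries per tissue. COL20A1, COL4A3, COL22A1 and other members near 1 CPM rest on few reads.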
